A study of Homo sapiens with 6 samples.

Results

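The metallothionein and zinc response group holds 8 named genes of the 56303 gene symbols in the count table, namely the metallothioneins MT1E, MT1F, MT1G, MT1M, MT1X and MT2A, the regulator MTF1 and the exporter SLC30A1. They were chosen by name and role with earlier results of these data known, and all 8 are in the table. Their mRNA was measured by RNA-seq in SW480, a human colon adenocarcinoma line, cultured in medium with serum. The 3 shCtrl libraries came from cells infected with a lentivirus carrying a nonsilencing hairpin, labelled WT, and the 3 shRBM39 libraries from cells infected with a hairpin against RBM39, a splicing factor, labelled RBM39 knockdown. Neither the labels nor the methods name any metal added to the medium. Per the study's methods, infected cells were selected with puromycin as stable clonal lines and 3 replicate experiments were made for each group, so a difference between the lines and an effect of the hairpin cannot be told apart.

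The metallothioneins are small cysteine-rich proteins that bind zinc, copper and cadmium, and their human genes lie in a cluster on the long arm of chromosome 16. When free zinc rises, the zinc finger protein MTF1 binds short promoter motifs called metal response elements and switches on the metallothionein genes together with SLC30A1, which encodes the zinc exporter ZnT1 of the plasma membrane. Metallothioneins are also induced by glucocorticoids, by oxidants and by heavy metals, and intestinal epithelium uses them to buffer the zinc that it absorbs.

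Total counts ran from 18042924 to 20428901 per library. RBM39 itself had 435 to 448 CPM (counts scaled to library size with TMM factors, which adjust for library composition) in shCtrl and 266 to 292 CPM in shRBM39, a log2 fold change of -0.67. EPCAM, KRT8, KRT18 and VIL1, genes of colonic epithelium, were abundant in all 6 libraries, whereas CDX1 was at or near 0 and CDX2, named after its values were seen, changed by -2.13 on the log2 scale with the knockdown, and CDH1 by -0.39. Of 9 markers of blood, vessel and stromal cells, PTPRC had 0 counts in all libraries and 6 could not be tested. The other 3, PECAM1, VWF and COL1A1, were called higher in shRBM39, and the summed level of the 9 markers was 9.61 to 10.7 CPM in shCtrl and 14.9 to 18.9 CPM in shRBM39. Their part in the results below was not tested. Across all 18243 genes tested, 59.1% were called by edgeR's quasi-likelihood test at an adjusted p under 0.05, 29.2% as higher and 29.9% as lower in shRBM39, so a call alone sets no gene apart. Of the calls, 49.4% were higher under TMM scaling and 33.9% under library totals alone, a choice that shifted the median log2 fold change of all genes by -0.12.

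The promoters of the RefSeq table (GRCh38.p14, 250 bases before to 50 after the start) show the motif through which MTF1 acts. The core of the metal response element was searched as TGCACNC or TGCGCNC on both strands, and matches are in capitals, with overlaps counted as separate matches. MT2A is shown because it carried most of the metallothionein mRNA, MT1X because it changed by a similar fold, SLC30A1 because it is the other known MTF1 target among the 8 genes, and MT1H because it had 0 counts in all 6 libraries.

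MT2A, chr16:56608334-56608633, plus strand: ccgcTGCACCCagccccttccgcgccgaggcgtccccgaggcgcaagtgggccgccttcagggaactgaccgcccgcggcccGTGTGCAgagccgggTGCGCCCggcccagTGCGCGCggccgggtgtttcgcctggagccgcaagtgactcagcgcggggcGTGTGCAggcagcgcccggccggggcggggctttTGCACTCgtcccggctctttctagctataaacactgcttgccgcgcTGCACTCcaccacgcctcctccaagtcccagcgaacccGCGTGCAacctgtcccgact
MT1X, chr16:56682220-56682519, plus strand: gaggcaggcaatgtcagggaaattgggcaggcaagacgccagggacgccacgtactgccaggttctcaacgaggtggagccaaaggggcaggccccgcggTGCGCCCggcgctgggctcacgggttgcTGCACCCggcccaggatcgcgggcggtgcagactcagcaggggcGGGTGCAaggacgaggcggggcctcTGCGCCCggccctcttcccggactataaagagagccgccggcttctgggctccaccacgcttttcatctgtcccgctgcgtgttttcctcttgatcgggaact
MT1H, chr16:56669564-56669863, plus strand: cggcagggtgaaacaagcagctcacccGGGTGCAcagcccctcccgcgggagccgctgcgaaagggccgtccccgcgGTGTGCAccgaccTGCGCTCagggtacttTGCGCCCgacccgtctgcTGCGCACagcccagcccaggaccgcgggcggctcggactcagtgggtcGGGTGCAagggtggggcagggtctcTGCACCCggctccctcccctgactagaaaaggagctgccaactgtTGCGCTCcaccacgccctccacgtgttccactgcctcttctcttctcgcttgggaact
SLC30A1, chr1:211579112-211579411, minus strand: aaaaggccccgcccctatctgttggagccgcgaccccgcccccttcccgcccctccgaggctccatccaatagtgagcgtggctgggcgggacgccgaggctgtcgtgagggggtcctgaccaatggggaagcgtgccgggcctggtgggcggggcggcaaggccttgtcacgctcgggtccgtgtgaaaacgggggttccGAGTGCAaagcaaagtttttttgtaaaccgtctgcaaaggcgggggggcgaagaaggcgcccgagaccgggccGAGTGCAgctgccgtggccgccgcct

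The MT2A and MT1H promoters each held 8 matches, a number reached by 0.0199% of the 35116 promoters of the table. The MT1X promoter held 4 matches, reached by 0.601% of promoters, and that of SLC30A1 held 2, reached by 8.6%. The MTF1 promoter held 0 matches, and 29.6% of all promoters held at least 1. MT2A, which was abundant, and MT1H, which had 0 counts, thus carried the same number of matches in this window. The promoters of MT1E, MT1F, MT1G, MT1M and MT1A were not in the table.

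MT2A carried most of the metallothionein mRNA of these cells. RPKM (counts divided by the merged exon length and the library total), the authors' deposited value, allows a comparison of levels between genes that depends on the length used. MT2A (chromosome 16, 56608199 to 56609497, GRCh38) had 74.8, 70.9 and 68.5 RPKM in the shCtrl libraries and 144, 155 and 156 RPKM in the shRBM39 libraries. The lowest knockdown library was thus well above the highest control library. The mean rose from 71.4 ± 3.21 to 152 ± 6.94 RPKM (SD, n = 3). The fitted log2 fold change of MT2A was 1.21 (standard error, SE, 0.04, edgeR adjusted p 2.25e-22), a 2.32-fold increase, and 228 of the 18243 tested genes had a larger one. MT2A made up 96.7% to 97.4% of the summed RPKM of the 6 metallothioneins in each library, and 87.2% to 91.0% once MT1A, which is not among the 8 genes, was added. The latter share is lowered by the lengths used. The merged exons of MT2A span 1299 bases against 401 in its canonical transcript, and both lengths are 396 for MT1A. Per canonical length, the means in shCtrl and shRBM39 were 231 and 492 RPKM for MT2A and 5.47 and 16.5 RPKM for MT1A. The sum of the 6 went from 73.4 ± 3.18 to 157 ± 7.27 RPKM (SD, n = 3). In these bulk libraries, a change in the share of cells that express a gene and a change of its mRNA per cell cannot be told apart.

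**Figure D1:**
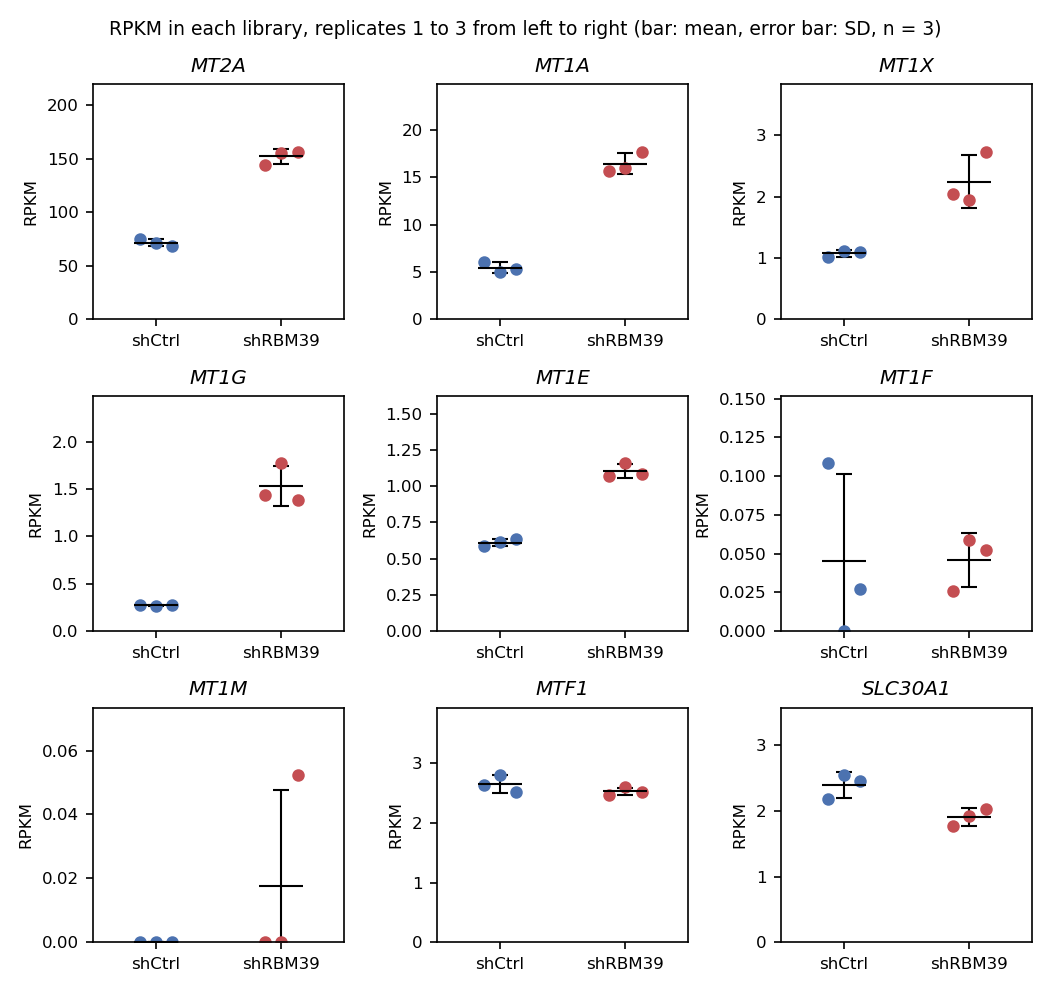
RPKM (vertical axis, linear from 0, a scale of its own in each panel) of the 8 genes and of MT1A in each of the 3 shCtrl (blue) and 3 shRBM39 (red) libraries, with the mean as a bar and the SD as an error bar. MT2A lies between 68.5 and 74.8 RPKM in shCtrl and between 144 and 156 in shRBM39, while the points of MTF1 overlap between the groups.

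The MT1 genes are tandem copies that encode proteins of the same fold. MT1X (chromosome 16, 56682424 to 56684196) had 35, 40 and 38 counts in shCtrl and 74, 62 and 98 counts in shRBM39, so the groups did not overlap and shRBM39 replicate 3 was the highest. Its log2 fold change was 1.18 (SE 0.17, edgeR adjusted p 3.82e-07), and it was 1.01 without shRBM39 replicate 3. MT1X shares 321 exon bases on the same strand with a long noncoding transcript, looked up after its values were seen, which had 33, 39 and 37 counts in shCtrl and 72, 57 and 95 in shRBM39. The reads of these overlapping genes cannot be told apart.

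MT1G (chromosome 16, 56666731 to 56668065, minus strand) had the largest fitted increase among the 8 genes, from a very low level. It had 4, 4 and 4 counts in shCtrl and 22, 24 and 21 counts in shRBM39. Every knockdown library was above every control library, with 12 counts in all in shCtrl and 67 in shRBM39. The log2 fold change of MT1G was 2.58 (SE 0.37, edgeR adjusted p 2.43e-07). MT1G passed the filter on low counts only through the knockdown libraries, and on the log2(RPKM + 1) scale, which compresses low levels, its difference was 0.99.

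MT1E (chromosome 16, 56625475 to 56627112) had 12, 13 and 13 counts in shCtrl and 23, 22 and 23 counts in shRBM39. The values within each group were almost equal and the groups did not overlap. The log2 fold change of MT1E was 0.97 (SE 0.28, edgeR adjusted p 0.00329). With DESeq2 the value was 0.99 and the call was lost.

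MT1F and MT1M were at the limit of detection and could not be tested. MT1F (chromosome 16, 56657694 to 56660698) had 4, 0 and 1 counts in shCtrl and 1, 2 and 2 counts in shRBM39. These counts overlapped and summed to 5 in each group. MT1M (chromosome 16, 56632233 to 56633986) had 0 counts in the 3 shCtrl libraries, which allows up to 3 counts, and a single count in shRBM39 replicate 3. No difference was detectable for either gene at this depth.

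MTF1, the zinc-sensing transcription factor, stayed within the spread of its replicates. MTF1 (chromosome 1, 37809567 to 37859620, minus strand) had 20.5, 21.5 and 19.3 CPM in shCtrl and 20.7, 21.8 and 21.1 CPM in shRBM39. The libraries of both groups overlapped. Its log2 fold change was 0.054 (SE 0.066, edgeR adjusted p 0.498), and it turned to -0.070 under library totals alone, again without a call.

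SLC30A1, which exports zinc from the cell, moved in the other direction from the metallothioneins and by little. SLC30A1 (chromosome 1, 211571568 to 211578742, minus strand) had 11.5, 13.3 and 12.8 CPM in shCtrl and 10.1, 11.0 and 11.6 CPM in shRBM39. The highest knockdown library reached slightly above the lowest control library. Its log2 fold change was -0.20 (SE 0.09, edgeR adjusted p 0.0436). This call was lost in 11 of 19 alternatives, among them without shCtrl replicate 2 (-0.16), shCtrl replicate 3 (-0.19), shRBM39 replicate 1 (-0.14) or shRBM39 replicate 2 (-0.21), with DESeq2 (-0.19) and after the correction for gene length (-0.18). Under library totals alone it was stronger, at -0.33.

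Of the 8 genes, 6 could be tested and 5 were called, 4 higher and 1 lower, where 59.1% of all tested genes were called. MT2A, MT1X and MT1G were called and at least 2-fold higher, where 2.36% of all tested genes were. The groups did not overlap in CPM for 4 of the 6, against 63.3% of all tested genes. The median log2 fold change of the 6 was 1.07, and that of all tested genes was -0.014. Since MT1G could be tested only because of its counts in shRBM39, these counts and the median are descriptions.

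**Figure D2:**
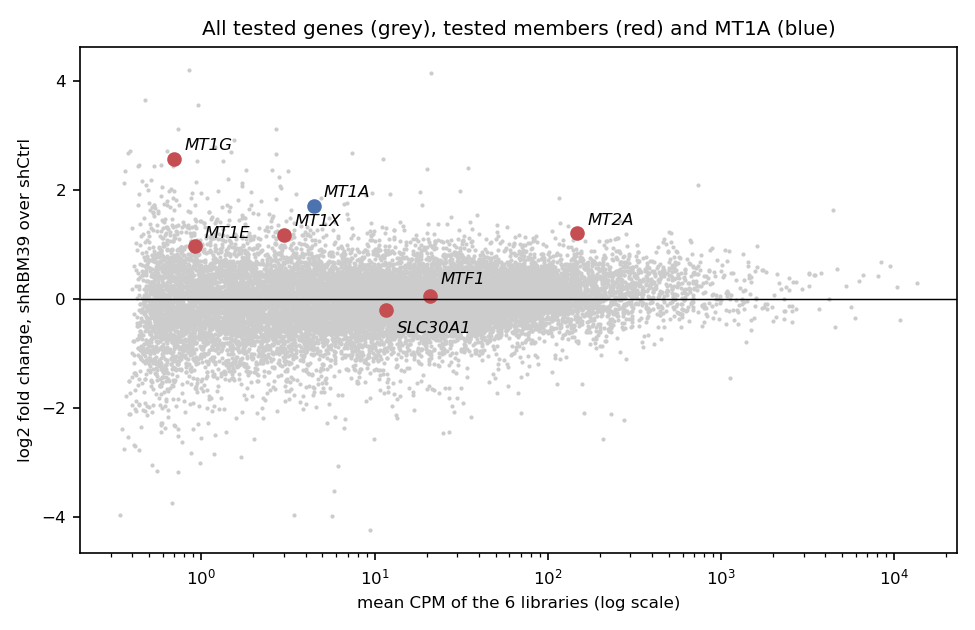
Log2 fold change of shRBM39 over shCtrl (vertical axis) against mean CPM over the 6 libraries (horizontal axis, log scale) for the 18243 tested genes in grey, the 6 tested metallothionein and zinc response genes in red and MT1A in blue. MT2A stands at 1.21 among the well expressed genes, MT1E, MT1X and MT1G lie at low CPM, and MTF1 and SLC30A1 lie near 0.

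The order of levels changed with the knockdown below MT2A. In shCtrl the mean levels fell in the order MT2A (71.4 RPKM), MTF1 (2.65), SLC30A1 (2.39), MT1X (1.08), MT1E (0.61), MT1G (0.27), MT1F (0.0452) and MT1M (0). MTF1 and SLC30A1 overlapped there, as did MT1F and MT1M, and the other neighbours were separate. In shRBM39 the order was MT2A (152 RPKM), MTF1 (2.53), MT1X (2.24), SLC30A1 (1.91), MT1G (1.53), MT1E (1.103), MT1F (0.0456) and MT1M (0.0175). There MTF1, MT1X and SLC30A1 each overlapped the next gene in this order, as did MT1F and MT1M, while MT1G and MT1E were separate. The merged exons of MT2A span 1299 bases against 401 for its GENCODE canonical transcript, and those of MT1X 1773 against 404, whereas both lengths are 396 for MT1A. Counted per base of the canonical transcript, MT2A stood at 231 and 492 RPKM in shCtrl and shRBM39 and MT1X at 4.72 and 9.82, above MTF1 at 2.68 and 2.56. MT1G stood at 0.49 and 2.80 on this scale. In shRBM39 it was thus above SLC30A1 at 1.77 and overlapped MTF1, so its place in the order depends on the length used.

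MT1A, a further gene of the cluster that is not among the 8, had the next highest level per length after MT2A. MT1A (chromosome 16, 56638666 to 56640087) had 6.08, 4.99 and 5.33 RPKM in shCtrl and 15.7, 15.96 and 17.7 RPKM in shRBM39. All knockdown libraries were above all control libraries. Its log2 fold change was 1.71 (SE 0.14, edgeR adjusted p 1.43e-12), a 3.28-fold increase. Of the list of 14 other metallothionein genes and pseudogenes, MT1A was the only one tested. Of the rest, 8 had 0 counts in all libraries, among them MT1H, MT1B and MT4, and MT3 had 0 to 2 counts in a library. MT1DP and MT1P1 had at most 3 counts in all. MT1P3 had 4, 3 and 3 counts in shCtrl and 3, 2 and 0 in shRBM39.

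Ratios within a library do not depend on how libraries are scaled, so the minor genes were set against MT2A. MT1A had 21.5 to 24.7 counts per 1000 MT2A counts in shCtrl and 31.3 to 34.5 in shRBM39. MT1G had 2.11 to 2.31 counts per 1000 MT2A counts in shCtrl and 5.11 to 6.59 in shRBM39. The values of both genes were higher in each knockdown library than in any control library. MT1E had 6.32 to 7.52 counts per 1000 MT2A counts in shCtrl and 5.59 to 6.04 in shRBM39, which is lower in each knockdown library. MT1X had 18.4 to 21.99 counts per 1000 MT2A counts in shCtrl and 17.0 to 23.8 in shRBM39, with overlap. The exact binomial 95% intervals of single libraries, which cover counting error only, spanned 15.3 to 33.1 in shCtrl and 25.7 to 40.8 in shRBM39 for MT1A, 0.573 to 5.94 and 3.16 to 9.82 for MT1G, and 3.26 to 12.9 and 3.54 to 9.16 for MT1E. These spans overlapped between the groups for each gene. Each span joins the intervals of all libraries of a group, so the overlap does not decide whether the groups differ. MT1G could be tested only because of its counts in shRBM39, and the ratios are given as descriptions with no test.

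**Figure D3:**
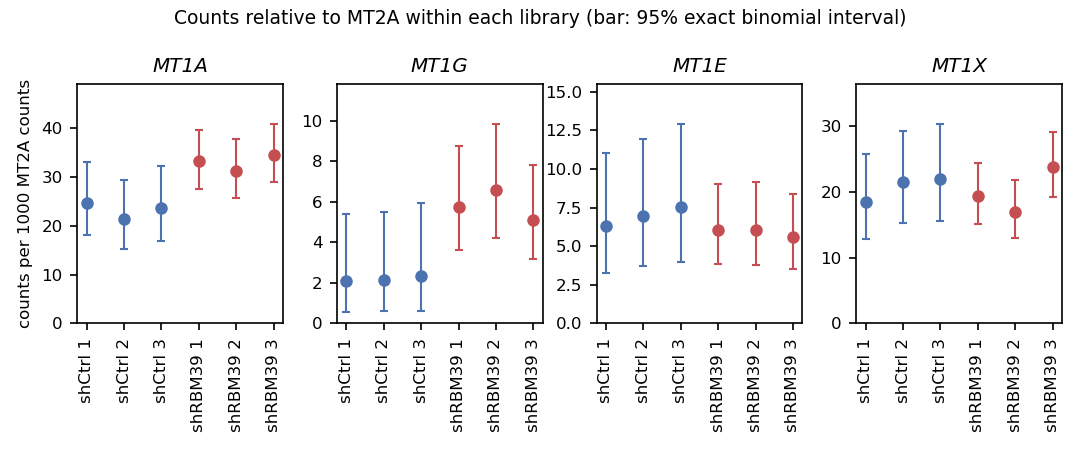
Counts of MT1A, MT1G, MT1E and MT1X per 1000 MT2A counts (vertical axes, linear from 0) in each library, shCtrl in blue and shRBM39 in red, with exact binomial 95% intervals for counting error as bars. The points of MT1A lie between 21.5 and 24.7 in shCtrl and between 31.3 and 34.5 in shRBM39, those of MT1X overlap between the groups, and the intervals of MT1A, MT1G and MT1E overlap between the groups.

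Near-identical copies could exchange reads, which bears most on the genes with few counts. Within the merged exons, 1.68% of the 50-base words of MT2A, 1.28% of those of MT1X and 0% of those of MT1A occurred in another gene of the family. The share was 6.92% for MT1E, 9.18% for MT1M and 14.4% for MT1G, and the gene with most words in common with MT1G was MT1H. With words of 30 bases the shares were 4.88% for MT2A, 15.2% for MT1A, 16.6% for MT1E and 23.7% for MT1G. These shares depend on the length used. The merged exons span 1299 bases for MT2A and 1773 for MT1X, against 401 and 404 in their canonical transcripts. Both lengths are 396 for MT1A. Shares within the canonical transcripts were not computed, so the order of the genes by share is uncertain. The counts of MT1E and MT1G are therefore uncertain, as are those of MT1A by words of 30 bases. How reads that match several genes were treated is not given in the sources used here. When the counts of the 6 metallothioneins were summed to 1 feature and fitted in their place, the log2 fold change was 1.21. Most counts of this sum were those of MT2A, which alone gave 1.21. The summed fit therefore does not show how the genes with few counts changed.

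The genes that flank the cluster were compared next, named for their position after the values were seen. BBS2, a gene of the primary cilium and the nearest protein-coding gene tested before the cluster, changed by -0.17 (SE 0.05), a call lost with DESeq2 and in every correction for gene length. OGFOD1, further in the same direction, changed by 0.26 (SE 0.05). NUP93, which encodes a nuclear pore protein and follows the cluster, changed by 0.53 (SE 0.04). HERPUD1, a gene of the endoplasmic reticulum stress response, lies 324 kb from MT2A and changed by -0.57 (SE 0.06), and NLRC5, a regulator of MHC class I genes, lies 381 kb away and changed by 1.79 (SE 0.21). Changes in both directions thus surrounded the cluster, whose 5 tested metallothionein genes were all higher.

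**Figure D4:**
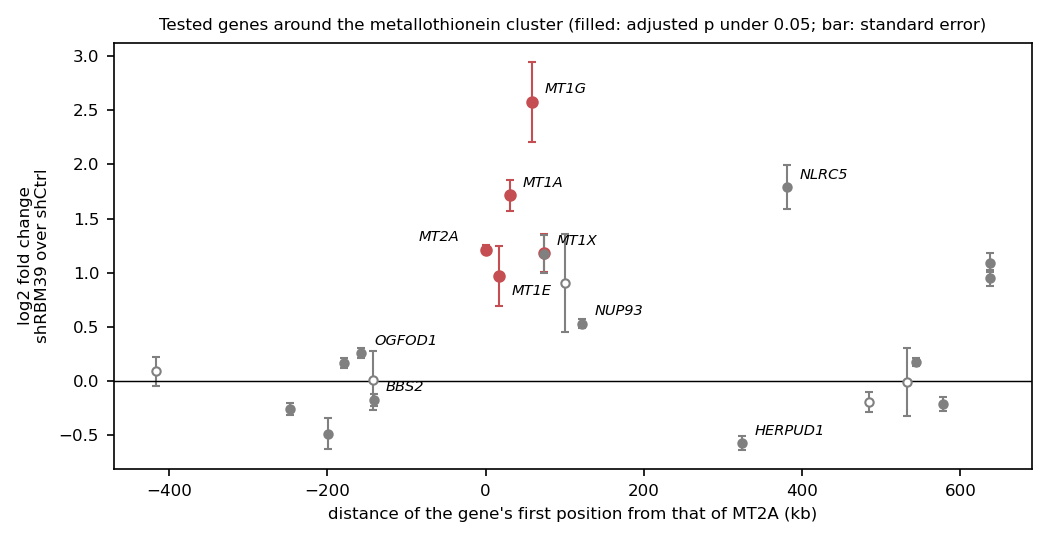
Log2 fold change of shRBM39 over shCtrl with its standard error (vertical axis) against the distance of each tested gene from MT2A in kb (horizontal axis), metallothionein genes in red, other genes in grey and genes with an adjusted p under 0.05 filled. The 5 metallothionein genes lie between 0.97 and 2.58, and the nearest protein-coding neighbours BBS2 and NUP93 at -0.17 and 0.53.

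The tested zinc transporters other than SLC30A1 had log2 fold changes between -0.90 and 0.66. The SLC30 family moves zinc out of the cytosol, either out of the cell or into organelles. Of its 9 other genes 6 were tested and SLC30A3, the exporter that fills synaptic vesicles in neurons, was the only one called, where 59.1% of all tested genes were called. SLC30A3 had 100, 98 and 83 counts in shCtrl and 117, 130 and 115 counts in shRBM39, which did not overlap. The fitted log2 fold change was 0.50 (SE 0.13, edgeR adjusted p 0.000946), and the call was lost on both log2 RPKM scales. The other 5 tested members lay between -0.27 and 0.42 with no call. SLC30A10, a manganese exporter named after its values were seen, was too low for the test, with 33 counts in shCtrl and 6 in shRBM39 over 3 libraries each.

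The SLC39 family moves zinc into the cytosol. Of its 14 genes 12 were tested and 7 were called, 3 higher and 4 lower, where 59.1% of all tested genes were called, and the median log2 fold change of the 12 was -0.06. SLC39A9, a zinc transporter of the Golgi and plasma membrane, had 38.4, 37.5 and 36.0 CPM in shCtrl and 58.9, 59.4 and 58.5 CPM in shRBM39. This clear separation gave a log2 difference of 0.66 (SE 0.05, edgeR adjusted p 3.51e-14). SLC39A7, which releases zinc from the endoplasmic reticulum, had the highest level of the family, 44.8 ± 1.42 RPKM in shCtrl and 49.6 ± 1.52 RPKM in shRBM39 (SD, n = 3), and a log2 fold change of 0.27 (SE 0.04). SLC39A1, an importer of the plasma membrane, changed by 0.24 (SE 0.04), a call lost on both log2 RPKM scales. SLC39A14, an importer of zinc, manganese and iron, changed by -0.15 (SE 0.04), a call lost after the correction for gene length. SLC39A5, an importer of the basolateral membrane named after its values were seen, had the largest decrease, with 45, 65 and 63 counts in shCtrl and 31, 27 and 26 counts in shRBM39. Its log2 fold change was -0.90 (SE 0.20, edgeR adjusted p 0.000172).

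**Figure D5:**
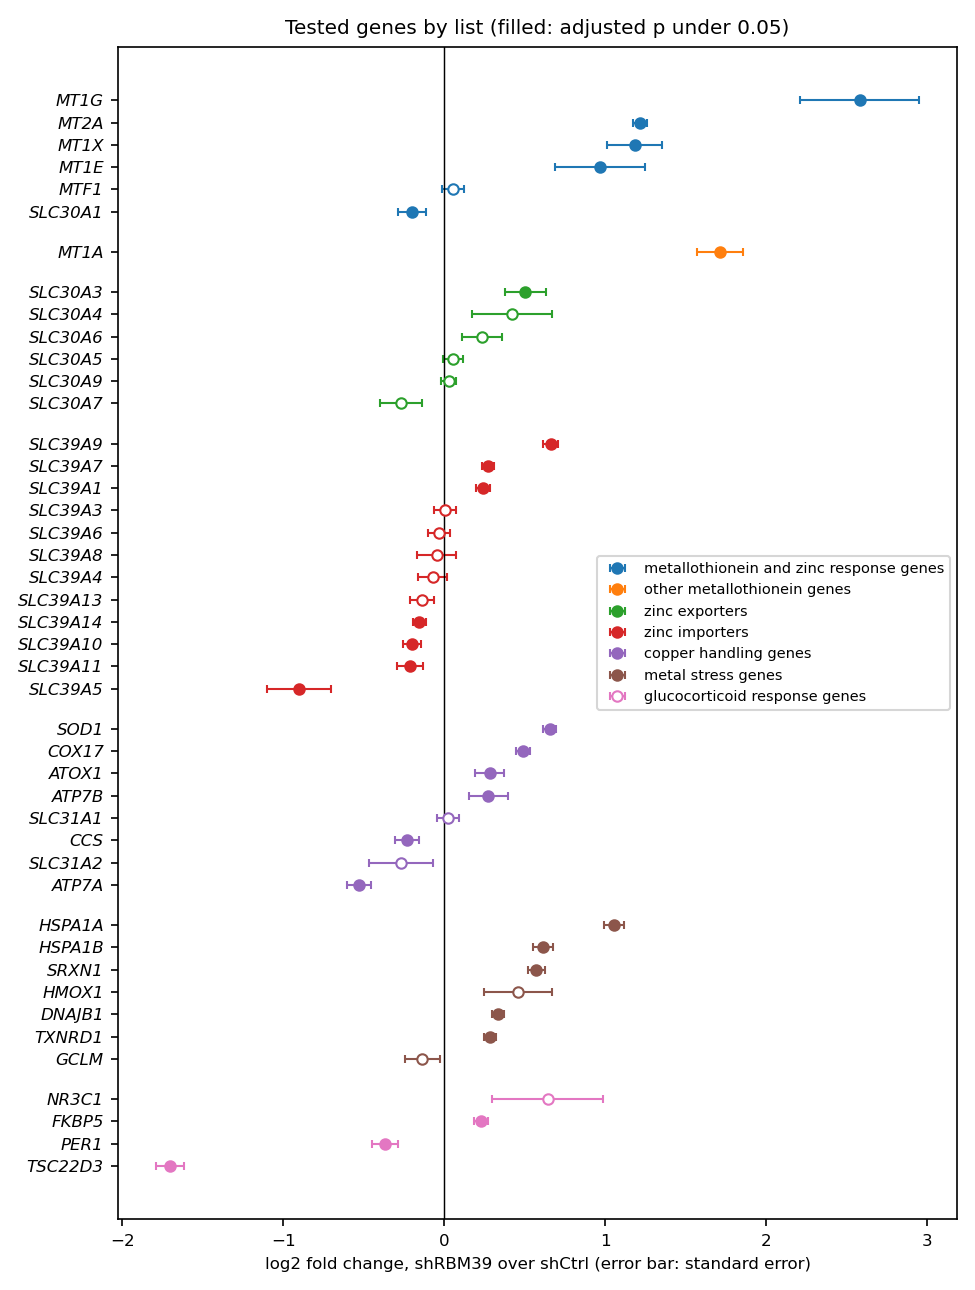
Log2 fold change of shRBM39 over shCtrl (horizontal axis) with its standard error for every tested gene of the lists, coloured by list and filled where the adjusted p was under 0.05. The metallothionein genes lie between 0.97 and 2.58, to the right of all tested zinc transporters, which lie between -0.90 and 0.66.

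Copper is another metal that metallothioneins hold. Of 8 copper handling genes, 6 were called, 4 higher and 2 lower, against 59.1% of all tested genes, and DESeq2 called 3. SOD1, the copper and zinc superoxide dismutase, had 419, 416 and 446 CPM in shCtrl and 645, 679 and 691 CPM in shRBM39. The groups were far apart, with a log2 difference of 0.65 (SE 0.04, edgeR adjusted p 2.37e-16). COX17, a copper chaperone of the mitochondrion, changed by 0.49 (SE 0.04). CCS, the chaperone that loads copper into SOD1, changed by -0.23 (SE 0.08), a call lost with DESeq2 and without shCtrl replicate 3, where it was -0.16. ATP7A, named after its values were seen, was the other gene called lower. It changed by -0.53 (SE 0.08, edgeR adjusted p 2.16e-07), and its groups did not overlap. ATOX1, a cytosolic copper chaperone, changed by 0.28 (SE 0.09), a call lost without shCtrl replicate 2 (0.18) or shRBM39 replicate 2 (0.23), with DESeq2, under library totals and on either log2 RPKM scale.

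Genes that heavy metals and oxidants induce were examined as a list of 7. Of these 5 were called, all higher, where 29.2% of all tested genes were called higher, and their median log2 fold change over the 7 was 0.46. HSPA1A, an inducible heat shock protein of the HSP70 family, had 35.0, 26.6 and 29.9 CPM in shCtrl and 65.3, 63.5 and 60.7 CPM in shRBM39. The knockdown libraries were all above the controls, at a log2 fold change of 1.05 (SE 0.06, edgeR adjusted p 1.31e-16). HSPA1B, a near-identical copy with which reads can be exchanged, changed by 0.61, DNAJB1, a co-chaperone of HSP70, by 0.33 and TXNRD1, the cytosolic thioredoxin reductase, by 0.28, with SEs from 0.037 to 0.062. HMOX1, the heme oxygenase that metals such as cadmium induce strongly, was not called, at 1.42 ± 0.0716 CPM in shCtrl and 1.98 ± 0.406 CPM in shRBM39 (SD, n = 3), at a log2 fold change of 0.46 (SE 0.21). It was called without shRBM39 replicate 1, at 0.57, and the value was 0.29 without shRBM39 replicate 2, the highest library. GCLM, an enzyme of glutathione synthesis, was not called either, at -0.14, but was called under library totals alone, at -0.26.

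Glucocorticoids are another known inducer of metallothioneins. Of 7 genes for the glucocorticoid receptor and its common targets, 4 were tested and 3 were called, 1 higher and 2 lower, where 59.1% of all tested genes were called. TSC22D3, a widely used target of the receptor, had 23.7, 26.2 and 26.0 CPM in shCtrl and 6.38, 8.83 and 8.26 CPM in shRBM39. All knockdown libraries were far below the controls, at a log2 fold change of -1.70 (SE 0.09, edgeR adjusted p 4.54e-18), opposite in sign to MT2A. PER1, a clock gene, changed by -0.37 (SE 0.08). FKBP5, a chaperone of the receptor complex, changed by 0.23 (SE 0.04), a call lost on either log2 RPKM scale and under library totals alone. NR3C1, the receptor gene, was at 0.0605 RPKM in shCtrl and 0.0884 RPKM in shRBM39 and was not called.

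The genes whose pattern was most like that of MT2A were sought among 12055 other genes whose mean reached 5 CPM. By the Pearson correlation of log2 CPM over the 6 libraries, these were CKMT1A (0.9995), C14orf2 (0.9995) and YWHAB (0.9993), with log2 fold changes of 0.73, 0.73 and 0.56. CKMT1A encodes a mitochondrial creatine kinase and has a near-identical copy, so its reads are uncertain, and YWHAB encodes a 14-3-3 protein. The 6 points of each correlation fall into the same 2 groups of 3, and 2499 of the genes had a correlation above 0.95.

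The authors' deposited table of splicing events was searched for the same genes, since RBM39 is a splicing factor. None of its 1582 records belonged to any of the 8 genes or to the other genes of the lists. The table holds a selection of the events that were examined, and the others were not analysed here.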

How the data were processed

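mRNA of SW480 cells was sequenced from stranded libraries, 3 shCtrl and 3 shRBM39. Groups and replicate numbers were taken from the sample titles, and columns named NC were read as shCtrl. The values deposited by the authors were raw counts for each gene symbol over its merged exons, and RPKM, which dividing those counts by exon length and column total gave back with a largest relative deviation of 5.14e-15. The submitters' processing notes name Trimmomatic 0.36, STAR 2.5.3a, featureCounts (Subread 1.5.1), edgeR 3.12.1 and GRCh38. The annotation release and the treatment of reads that match or overlap several genes are not given in the sources used here. In a sample of 5000 genes, 95.8% of the exons had the same coordinates as one in GENCODE v44 on GRCh38.

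Counts were tested with edgeR 4.0.16 in R 4.3.3 (filterByExpr, TMM, glmQLFit with group as the only term, Benjamini-Hochberg over all 18243 tested genes, threshold 0.05). CPM values carry the TMM factors, and standard errors were derived from the log2 fold change and its F statistic. The 8 genes and the lists were chosen with earlier results of these data known, and no list was tested as such. Named were the 8 genes, RBM39, and of each list up to 4 called genes and up to 2 others with the highest mean RPKM. Some further genes are marked as named after their values were seen. Pairs of replicates differed by more than sampling noise (chi-square divided by its degrees of freedom, 2.01 to 3.9). P-values measure the spread between these samples only.

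The fits were repeated with DESeq2 1.42.0, with scaling by upper quartiles or by library totals alone, without the filter, with a minimum of 10 counts in each library, with limma-trend (limma 3.58.1) on log2(RPKM + 1) and log2(RPKM + 0.1) for genes above 0.1 RPKM in at least 3 libraries, with a replicate block, with corrections of each library for its trend with gene length and GC content, with each library left out, at a threshold of 0.01, and with glmTreat, which tests whether the log2 change exceeds 0.5. Levels per canonical transcript length were added after the data were seen. The fits were tested on simulated counts.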

Additional observations from a re-analysis of the deposited data

How the results depend on the processing

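Of 680 values of named genes under the alternatives, the direction and the side of the threshold were kept in 624. MTF1 changed sign in 3 of them without a call, to -0.070 under library totals alone, -0.048 on log2(RPKM + 1) and -0.064 on log2(RPKM + 0.1). MT2A, MT1A, MT1X and MT1G kept their calls in every alternative in which they could be tested, and MT1G could not be tested with at least 10 counts in every library. Of the 8 genes, DESeq2 called 3 and glmTreat at 0.5 called 3, in place of 5. That test, which asks for a larger difference, called 2232 genes in all against 10790, and it called 1 zinc importer, 0 zinc exporters, 1 copper handling gene, 1 metal stress gene and 1 glucocorticoid response gene. DESeq2 called 3 copper handling genes. The single call among zinc exporters became 2, 1 higher and 1 lower, under upper-quartile scaling, library totals alone, DESeq2 and no filter. Under the correction for GC content and length it became 2, both higher. With a library left out there were 1 to 2 calls, and on either log2 RPKM scale 0. The cause of these changes was not tested. The log2 ratio of the summed metallothionein level was 1.10 in RPKM, 1.21 in CPM, 1.30 without MT2A and 1.21 when fitted as 1 feature.

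Same-numbered replicates did not deviate together (correlations of 0.006, -0.028 and 0.0001). With the replicate number as a block 10810 genes were called in place of 10790, and 5 of the 8 genes. Of the calls, 5327 were higher and 5463 lower, against 3775 and 7371 under library totals alone, 3430 and 6711 on log2(RPKM + 1) and 3409 and 6643 on log2(RPKM + 0.1). Depth limits the 4 metallothioneins MT1E, MT1F, MT1G and MT1M, which had at most 24 counts in any library.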
